A study of Mus musculus with 15 samples.

Results

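The growth hormone, STAT5 and IGF1 axis is described here by 10 genes in mouse liver. The genes were chosen by symbol for their roles, with earlier results of these data known. They are the receptor gene Ghr, the signal transducers Stat5a and Stat5b, the feedback inhibitors Socs2 and Cish, the secreted products Igf1 and Igfals, and the transcription factors Bcl6, Cux2 and Onecut1. All 10 names were found among the 18510 rows of the table, and 9 of them passed the filter on low values. Cux2 did not pass, since it reached 1 FPKM in 4 of 15 libraries where 5 were needed. Liver RNA was sequenced from 15 wild-type mice, 5 to a group. Mice labelled Ctrl ate a control diet and those labelled Alc ate alcohol diet. Mice labelled Alc UA ate alcohol diet with UA, a short form that the labels leave unexplained. Of sex, age, strain, dose, feeding time and time of collection, the sources used here say nothing. Ddx3y, a Y-linked gene, was at 10.83 to 13.6 FPKM in Ctrl, 11.06 to 14.15 in Alc and 10.84 to 16.74 in Alc UA, so all 15 libraries held Y-linked RNA.

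Growth hormone from the pituitary binds its receptor on hepatocytes, which activates the kinase JAK2 and, through it, STAT5. Phosphorylated STAT5 moves to the nucleus, where it switches on Igf1, Igfals, Socs2 and Cish, and the SOCS-family proteins then damp the receptor's signal. In rodents the hormone reaches the liver in pulses in males and more continuously in females, and STAT5 with BCL6, CUX2 and ONECUT1 (also called HNF6) takes part in setting which genes differ between the sexes.

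STAT5 is known to bind the palindrome TTCNNNGAA, which reads the same on both strands, so the windows around the members' transcription starts were searched for these letters. RefSeq windows of 300 bases, from 250 before to 50 after a start (build GRCm38.p6), were found for 9 of 10 members, 16 windows in all, and Socs2 had none. The letters occurred 8 times, in 5 windows of 3 members, Cish, Bcl6 and Igfals. Of all 32851 windows, 8.30% held them at least once and 0.457% held them 2 times or more. One window per gene is printed, holding 6 of the 8 matches, with the searched letters in capitals. The other 2 matches start at position -118 of a second Bcl6 window and at position -236 of another Igfals window. The Cish stretch (chr9:107296649-107296678, plus strand) runs from position -10 to 20 relative to the start, and GENCODE M21 annotates it as exon and UTR. The Bcl6 stretch (chr16:23981323-23981491, minus strand) runs from position -208 to -40 relative to a start, and GENCODE M21 annotates it as intron. The Igfals stretch (chr17:24878133-24878221, plus strand) runs from position -98 to -10 relative to a start, with its match in an intron.
Cish: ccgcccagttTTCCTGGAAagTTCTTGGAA
Bcl6: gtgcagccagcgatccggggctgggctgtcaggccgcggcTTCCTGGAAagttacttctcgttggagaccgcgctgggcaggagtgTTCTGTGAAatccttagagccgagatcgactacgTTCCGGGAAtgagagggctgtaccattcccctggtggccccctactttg
Igfals: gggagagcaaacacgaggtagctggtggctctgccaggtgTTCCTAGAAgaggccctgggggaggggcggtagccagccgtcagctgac
The Cish stretch holds 2 matches 2 bases apart, the Bcl6 stretch holds 3, and the Igfals stretch holds 1. A match is a description of the letters, and no binding was measured in these livers.

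Expression was given as FPKM, fragments scaled for transcript length and for library size, so levels of different genes can be set side by side. The FPKM of a library summed to 551153 to 668832, 10119 to 11471 genes reached 1 FPKM, and the number of reads is unknown. The liver label was borne out by Alb, the albumin gene, at 14848 to 42149 FPKM. On the first principal component of all tested genes, which held 45.7% of the variance, Ctrl 5 lay nearest the alcohol libraries, at -6.04 against -48.4 to -30.2 for the other controls. Ctrl 1 had the lowest score there and the highest of the controls on the second component. Called members are therefore also given without Ctrl 1 and Ctrl 5, a setting added after seeing the data. Differences are of log2(FPKM + 1) ± SE, first group minus second, a scale that understates changes of weak genes. A gene was called when limma's p-value, adjusted by Benjamini-Hochberg over all 10959 tested genes, was under 0.05. The 3 comparisons share libraries. The median difference of all tested genes was -0.12 for Alc against Ctrl, -0.051 for Alc UA against Alc and -0.16 for Alc UA against Ctrl. In bulk liver, fewer cells of a type and less RNA per cell cannot be told apart.

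Within the axis, Alc livers had more Onecut1 and Ghr transcript and less Socs2 than Ctrl livers, while Igf1, Igfals, Stat5a, Stat5b, Cish and Bcl6 were not called. That is 3 of 9 tested members, against 33.3% of all tested genes, so the share of members called was that of the background. By direction, 2 members were higher, where 10.6% of all genes were, and 1 was lower, where 22.8% were. The ranges of Alc and Ctrl overlapped for all 10 members, and 15.8% of tested genes had ranges apart. The median difference of the 9 members was -0.22. Of 27 alternative settings, Ghr lost its call in 15, Socs2 in 9 and Onecut1 in 0.

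**Figure D1:**
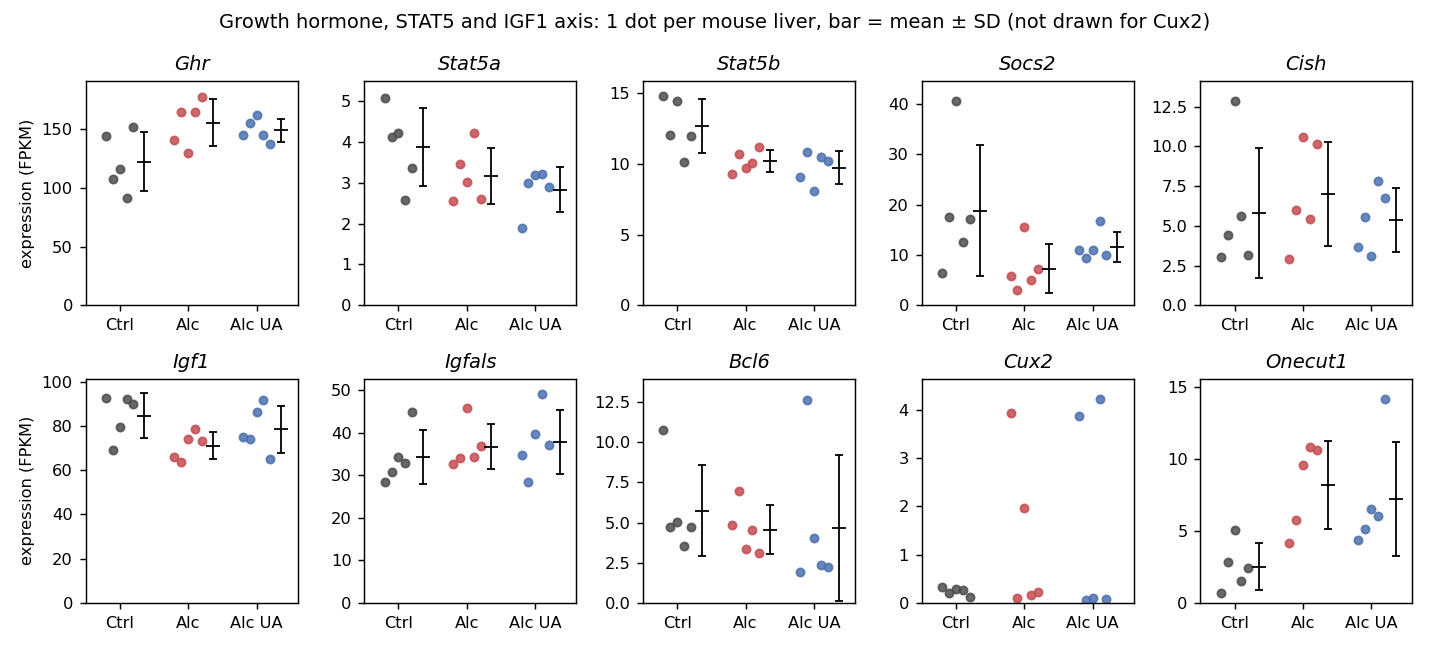
FPKM of each of the 10 members in each library, with 5 points for Ctrl, 5 for Alc and 5 for Alc UA in every panel, and the mean ± SD as a bar except for Cux2. Ghr and Onecut1 sit higher in most alcohol libraries, Socs2 sits lower in most Alc libraries, and Cux2 exceeds 1 FPKM in 2 Alc and 2 Alc UA libraries.

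Ghr, which encodes the growth hormone receptor, had the highest level of the 10 in every group. It measured 143.82, 107.79, 116.25, 91.37 and 152.11 FPKM in Ctrl 1 to 5. The Alc livers held 140.47, 165.03, 129.47, 164.81 and 177.60 FPKM, and the Alc UA livers held 145.12, 155.22, 161.93, 145.20 and 137.63 FPKM. Ctrl 2, Ctrl 3 and Ctrl 4 lay below every Alc and Alc UA library, while Ctrl 1 and Ctrl 5 lay among them. Means were 122.3 ± 25.3 in Ctrl, 155.5 ± 19.8 in Alc and 149 ± 9.55 in Alc UA (SD, n = 5). Ghr rose by 0.36 ± 0.13 in Alc against Ctrl (limma adjusted p = 0.046), or 0.48 above the median of all genes. This call was lost in 12 of 15 fits that left out 1 library, all but those without Ctrl 1, Ctrl 5 or Alc 3 (limma adjusted p = 0.051 to 0.12). It was also lost with no filter, with replicate number as a block and with only the 2 groups compared (limma adjusted p = 0.061 to 0.087). Ctrl 1 and Ctrl 5 held the most Ghr of the controls, so leaving them out could only enlarge the difference of either alcohol group from Ctrl. Without both, Alc against Ctrl gave 0.56 (limma adjusted p = 0.0036). Alc UA against Ctrl gave 0.31 ± 0.13 (limma adjusted p = 0.071), which passed without Ctrl 1 (0.041), without Ctrl 5 (0.020) and without both (0.0047). It also passed with quantile normalization (0.015), with size factors from the median of ratios (0.0077) and after scaling libraries to 1 sum (0.046).

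Stat5a and Stat5b encode the neighbouring and closely related STAT5 proteins, of which STAT5B is the main one in liver, and reads shared between them could have been split. Stat5b measured 14.77, 12.07, 14.47, 10.16 and 11.95 FPKM in Ctrl, 9.28, 10.71, 9.73, 10.09 and 11.20 in Alc, and 9.06, 10.87, 8.05, 10.49 and 10.20 in Alc UA. Every control but Ctrl 4 exceeded all 10 libraries of the alcohol groups.

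Stat5b means were 12.7 ± 1.93 in Ctrl, 10.2 ± 0.765 in Alc and 9.73 ± 1.16 in Alc UA (SD, n = 5). In Alc against Ctrl its difference was -0.28 ± 0.10 (95% interval -0.50 to -0.06), which narrowly missed the threshold (limma adjusted p = 0.051). It passed without Ctrl 4 (0.021), without Ctrl 5 (0.048) and without Alc UA 3 (0.042). The difference shrank to -0.18 with quantile normalization (limma adjusted p = 0.14). With size factors from the median of ratios it was -0.12 (0.36), and after scaling libraries to 1 sum it was -0.15 (0.37). In Alc UA against Ctrl, Stat5b fell by 0.35 ± 0.10 (limma adjusted p = 0.016), and 0.18 of that fall lay beyond the shift of all genes. The call was lost with quantile normalization (-0.20, limma adjusted p = 0.088), with size factors from the median of ratios (-0.12, 0.35), after scaling libraries to 1 sum (0.097) and without Ctrl 1 and Ctrl 5 (0.058).

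Stat5a was the weaker of the pair, at 2.57 to 5.08 FPKM in Ctrl, 2.56 to 4.23 in Alc and 1.89 to 3.21 in Alc UA. Its difference was -0.22 ± 0.15 in Alc against Ctrl (limma adjusted p = 0.28) and -0.34 ± 0.15 in Alc UA against Ctrl (limma adjusted p = 0.084). The latter passed without Ctrl 4 (0.027) and with library weights (0.035). In 25 of 27 alternatives it did not pass (limma adjusted p up to 0.33). The ratio of Stat5b to Stat5a FPKM was 3.35 ± 0.445 in Ctrl, 3.33 ± 0.708 in Alc and 3.55 ± 0.819 in Alc UA (SD, n = 5), with ranges that overlapped.

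The feedback inhibitors Socs2 and Cish are both textbook STAT5 targets. Socs2 measured 6.32, 17.64, 40.57, 12.54 and 17.14 FPKM in Ctrl, 5.74, 3.05, 15.56, 4.92 and 7.16 in Alc, and 10.93, 9.48, 11.08, 16.80 and 9.91 in Alc UA. In Alc, 4 of 5 libraries lay below every control but Ctrl 1, and Alc 3 lay among the controls. The Alc UA libraries lay within the span of the controls, and only Alc 3 of the Alc libraries exceeded the lowest of them. Means were 18.8 ± 13 in Ctrl, 7.29 ± 4.86 in Alc and 11.6 ± 2.96 in Alc UA (SD, n = 5).

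Socs2 fell by 1.20 ± 0.39 in Alc against Ctrl (limma adjusted p = 0.028), 1.08 below the median of all genes. The call was lost without Ctrl 2, Ctrl 3, Alc 1, Alc 2 or Alc 4 (limma adjusted p = 0.055 to 0.076). It also missed the threshold with size factors from the median of ratios (0.0501) and after scaling libraries to 1 sum (0.056). The same held with no filter and with only the 2 groups compared (limma adjusted p up to 0.057). Without Ctrl 5 and Ctrl 1, the latter being the control with the least Socs2, the difference was -1.57 (limma adjusted p = 0.0087). Alc UA against Alc gave 0.75 ± 0.39 (95% interval -0.08 to 1.58, limma adjusted p = 0.82), and Alc UA against Ctrl gave -0.45 ± 0.39 (limma adjusted p = 0.37). Whether the difference from Ctrl differs between Alc and Alc UA is the Alc UA against Alc comparison itself, which did not pass.

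Cish, whose start window holds a pair of the searched palindromes, measured 3.01, 4.41, 12.89, 5.59 and 3.18 FPKM in Ctrl, 2.88, 5.98, 10.61, 5.40 and 10.17 in Alc, and 3.64, 5.53, 3.11, 7.85 and 6.78 in Alc UA. Ctrl 3 was the highest of all 15 libraries for both Cish and Socs2. No shift between groups stood out from this spread, with 0.29 ± 0.35 in Alc against Ctrl (95% interval -0.46 to 1.03, limma adjusted p = 0.55). The difference between the changes of Socs2 and Cish was not tested.

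Igf1, the circulating growth factor that liver supplies, was the second most abundant member in every group. It measured 92.78, 68.95, 79.46, 92.05 and 89.91 FPKM in Ctrl, 66.02, 63.71, 73.88, 78.75 and 73.13 in Alc, and 74.87, 74.18, 86.19, 91.81 and 65.06 in Alc UA. Ctrl 1, Ctrl 3, Ctrl 4 and Ctrl 5 exceeded every Alc library, and Ctrl 2 lay among them. Means were 84.6 ± 10.3 in Ctrl, 71.1 ± 6.14 in Alc and 78.4 ± 10.6 in Alc UA (SD, n = 5). The difference of Alc from Ctrl was -0.24 ± 0.11 (95% interval -0.48 to -0.01, limma adjusted p = 0.097), or -0.12 relative to the median of all genes. Over all 27 alternatives it ranged from -0.31 to -0.075 (limma adjusted p up to 0.63), and it passed only without Ctrl 2 (0.044). Alc UA against Ctrl gave -0.11 ± 0.11 (limma adjusted p = 0.44), a sign that turned with size factors from the median of ratios (0.13, limma adjusted p = 0.35).

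Igfals encodes the acid-labile subunit, which holds IGF1 in a long-lived complex in blood, and 2 of its 3 start windows hold 1 searched palindrome each. It spanned 28.38 to 44.84 FPKM in Ctrl, 32.76 to 45.88 in Alc and 28.31 to 49.13 in Alc UA. These ranges nearly coincided. The difference was 0.10 ± 0.14 in Alc against Ctrl (95% interval -0.20 to 0.41, limma adjusted p = 0.60) and 0.13 ± 0.14 in Alc UA against Ctrl (limma adjusted p = 0.48).

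Among the transcription factors, Onecut1 had the largest called difference of the axis. It measured 0.70, 2.87, 5.10, 1.55 and 2.43 FPKM in Ctrl, 4.19, 5.76, 9.58, 10.81 and 10.65 in Alc, and 4.35, 5.12, 6.52, 6.03 and 14.17 in Alc UA. Only Ctrl 3 reached the lower end of the alcohol libraries, above Alc 1 and Alc UA 1, and 4 of 5 controls lay below all 10 alcohol libraries. Means were 2.53 ± 1.66 in Ctrl, 8.20 ± 3.03 in Alc and 7.24 ± 3.96 in Alc UA (SD, n = 5). Onecut1 rose by 1.44 ± 0.34 in Alc against Ctrl (limma adjusted p = 0.0056) and by 1.25 ± 0.34 in Alc UA against Ctrl (limma adjusted p = 0.0088). Relative to the median of all genes these were 1.56 and 1.41. Both calls held in every alternative tried, and without Ctrl 1 and Ctrl 5 the differences were 1.16 (limma adjusted p = 0.024) and 0.97 (0.044).

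Bcl6, a repressor that opposes STAT5 at shared liver targets and whose 2 start windows hold 3 and 1 searched palindromes, measured 10.74, 4.73, 5.02, 3.55 and 4.69 FPKM in Ctrl, 4.86, 6.97, 3.34, 4.53 and 3.09 in Alc, and 1.91, 12.65, 4.01, 2.37 and 2.26 in Alc UA. Ctrl 1 and Alc UA 2 stood far above the other libraries of their groups. Alc against Ctrl gave -0.24 ± 0.36 (limma adjusted p = 0.63). Alc UA against Ctrl gave -0.45 ± 0.36 (limma adjusted p = 0.33), and without Alc UA 2 it gave -0.84 (limma adjusted p = 0.019).

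Cux2 encodes a repressor known to be far more abundant in female than in male mouse liver. It was at 0.33, 0.21, 0.29, 0.26 and 0.12 FPKM in Ctrl, 3.93, 0.10, 1.97, 0.16 and 0.22 in Alc, and 3.88, 0.07, 0.10, 4.22 and 0.08 in Alc UA. Alc 1, Alc 3, Alc UA 1 and Alc UA 4 exceeded 1 FPKM, and the other 11 libraries lay at or below 0.33. With no filter except rows of 0, the difference of Alc from Ctrl was 0.59 ± 0.53 (limma adjusted p = 0.46), and that of Alc UA from Ctrl was 0.69 (limma adjusted p = 0.36).

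**Figure D2:**
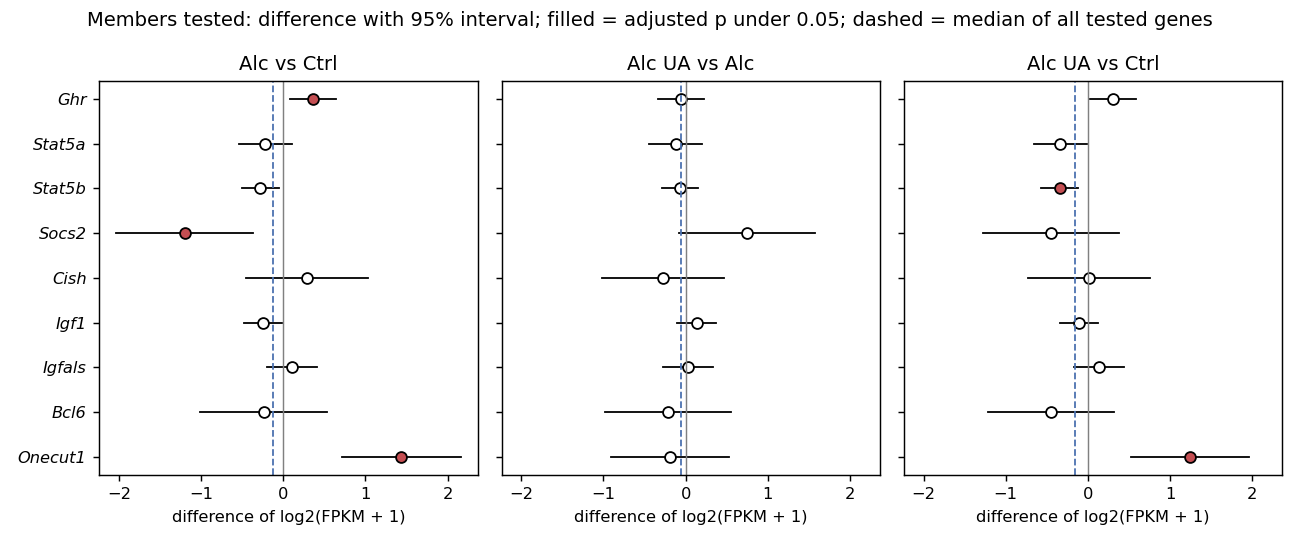
Differences of log2(FPKM + 1) for the 9 tested members in the 3 comparisons, as points with 95% intervals, with called differences marked and a line at the median of all tested genes. Onecut1 lies highest in both comparisons with Ctrl, at 1.44 and 1.25, and Socs2 lies lowest in Alc against Ctrl, at -1.20.

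Adding UA to the alcohol diet gave no called member. For Alc UA against Alc, 0 of 9 members were called by limma, 0 had an unadjusted p under 0.05, and Socs2 came nearest. Over all genes 0.00912% were called, a single gene, while 664 had an unadjusted p under 0.05. No member had ranges apart, against 1.18% of tested genes. The 95% interval was -0.33 to 0.23 for Ghr, -0.29 to 0.16 for Stat5b and -0.10 to 0.37 for Igf1. For Stat5a it was -0.44 to 0.20, and for Igfals -0.28 to 0.33. Wider intervals were those of Socs2 (-0.08 to 1.58), Cish (-1.02 to 0.47), Bcl6 (-0.98 to 0.55) and Onecut1 (-0.91 to 0.53). These intervals bound how large a difference the libraries leave possible for each member. For Alc UA against Ctrl, 2 of 9 members were called, Onecut1 higher and Stat5b lower, against 42.6% of all genes (10.5% higher and 32.1% lower). No member had ranges apart there, against 20.2% of tested genes.

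By mean FPKM, the order in Ctrl was Ghr, Igf1, Igfals, Socs2, Stat5b, Cish, Bcl6, Stat5a, Onecut1 and Cux2. Only the steps from Igf1 to Igfals and from Onecut1 to Cux2 had ranges apart. In Alc, Onecut1 was the fifth and Socs2 the sixth, and in Alc UA Socs2 was the fourth and Onecut1 the sixth. In both alcohol groups the first 3 steps, from Ghr through Igf1 and Igfals to the next gene, had ranges apart, and the later neighbours overlapped.

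The members also differed in how steady they were. Over the 15 libraries the SD of log2(FPKM + 1) was 0.87 for Onecut1, 0.83 for Socs2, 0.63 for Bcl6 and 0.60 for Cish, and 0.19 to 0.27 for Igf1, Stat5b, Igfals, Ghr and Stat5a. The genes whose centred values lay nearest to the 3 most variable members were found by root mean square difference over 15 libraries and 10957 genes. For Onecut1, itself at 0.84, these included Ak4 (0.43) and Isoc1 (0.48). For Socs2, itself at 0.80, they included Serpine2 (0.56) and Dact2 (0.57). For Bcl6, itself at 0.61, they were Anxa1 (0.41), Ccdc120 (0.41) and Apobec1 (0.42).

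Member pairs joined by the pathway were compared library by library after removing each group's mean, for 4 pairs over 15 libraries. Cish and Socs2 had r = 0.66 (permutation p = 0.028, adjusted 0.075) and rho = 0.53 (permutation p = 0.082, adjusted 0.20). Without Ctrl 3 and Alc 1, the libraries farthest from the median on the x axis, r was 0.54 (permutation p = 0.076). This positive relation did not pass after adjustment on the deposited scale.

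Bcl6 and Socs2 had r = -0.46 (permutation p = 0.037, adjusted 0.075) and rho = -0.37 (permutation p = 0.15, adjusted 0.20). Without Alc UA 2 and Ctrl 1, the libraries with the most Bcl6, r was -0.33 (permutation p = 0.33). Ghr and Igf1 had r = 0.25 (permutation p = 0.42, adjusted 0.42) and rho = 0.36 (permutation p = 0.20, adjusted 0.20), and without Ctrl 5 and Ctrl 4 r was 0.46 (permutation p = 0.13). Igf1 and Igfals had r = 0.43 (permutation p = 0.17, adjusted 0.23) and rho = 0.41 (permutation p = 0.17, adjusted 0.20), and without Ctrl 2 and Alc UA 5 r was 0.48 (permutation p = 0.15). None of the 4 pairs passed after adjustment on the deposited scale. With size factors from the median of ratios 3 passed, Cish and Socs2 (0.65, adjusted permutation p = 0.038), Bcl6 and Socs2 (-0.53, 0.030) and Igf1 and Igfals (0.67, 0.038). With quantile normalization 2 passed, Cish and Socs2 (0.69, 0.043) and Bcl6 and Socs2 (-0.55, 0.025). Each of these 2 pairs did not pass in 19 of 21 alternatives, same-sum scaling among them (adjusted permutation p up to 0.24 and 0.23).

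**Figure D3:**
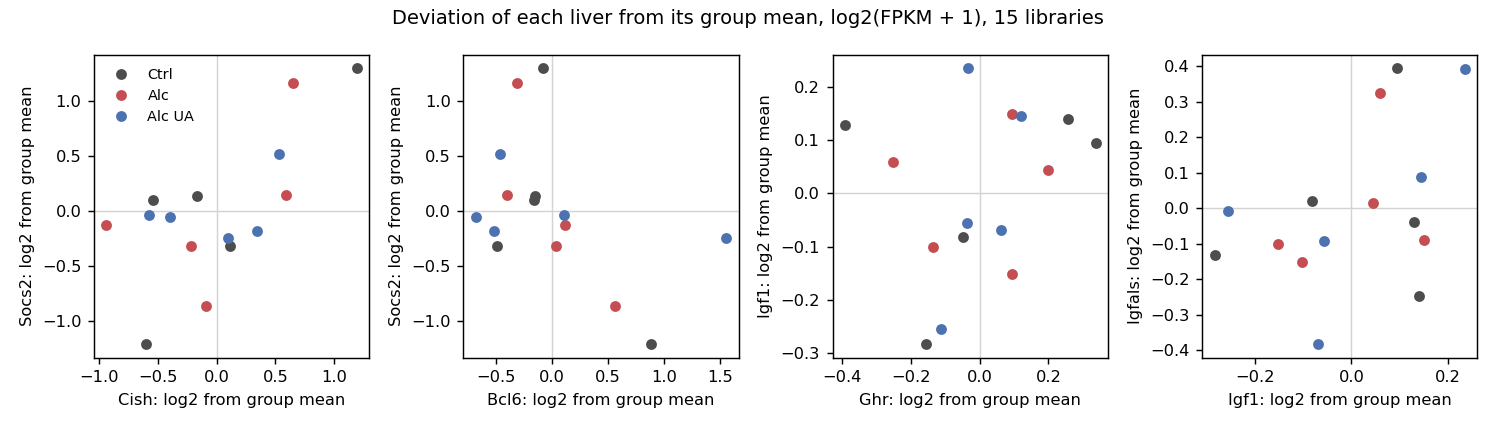
Deviations of log2(FPKM + 1) from the group mean for 4 pairs of members, 1 point per library, coloured by group. Cish and Socs2 have r = 0.66 and Bcl6 and Socs2 have r = -0.46, neither past the threshold after adjustment on the deposited scale. Both passed under 2 other scalings and did not pass in 19 of 21 alternatives. Ctrl 1 and Alc UA 2 lie at the far right of the Bcl6 panel.

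Around the axis, the share of genes called in each list is read beside the 33.3% called over all tested genes, 10.6% higher and 22.8% lower, in Alc against Ctrl. Of 29 tested genes of growth hormone receptor signalling and its brakes, 2 were higher and 4 lower in Alc than in Ctrl, or 20.7% called, with a median of -0.14 against -0.12 for all genes. Jak2, the kinase on the receptor, was 3.61 ± 0.543 FPKM in Alc against 3.83 ± 0.812 in Ctrl (limma adjusted p = 0.71). Prlr, the prolactin receptor gene, spanned 6.89 to 16.7 FPKM in Ctrl and 19.5 to 30.1 in Alc, ranges that lie apart. It rose by 0.996 ± 0.33 (limma adjusted p = 0.030), a call lost without Ctrl 3, Ctrl 4, Alc 1, Alc 4 or Alc 5 (limma adjusted p = 0.055 to 0.083).

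Among the brakes, Socs3, an inhibitor of cytokine receptors, was 4.76 ± 1.92 FPKM in Alc against 10.7 ± 3.88 in Ctrl (-1.03 ± 0.26, limma adjusted p = 0.0075). Ptpn2, a phosphatase that acts on JAK and STAT proteins, differed by -0.44 ± 0.11 (limma adjusted p = 0.0081), and Socs6 by -0.27 ± 0.08 (limma adjusted p = 0.021). Each of these genes was lower in Alc. Socs6 lost its call under quantile, median-of-ratios and same-sum scaling (limma adjusted p = 0.086 to 0.21).

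Of 4 other STAT genes tested, 0 were higher and 1 lower in Alc, or 25% called. That gene was Stat2, a part of the interferon-activated complex, at 14.8 ± 3.41 FPKM in Alc against 27.3 ± 4.99 in Ctrl (-0.85 ± 0.15, limma adjusted p = 9.0e-04). The median of the 4 was 0.093.

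Genes of IGF binding and IGF receptors had 3 higher and 1 lower of 11 tested, or 36.4% called, with a median of -0.16. Igf1r, the IGF1 receptor gene, reached at most 1.38 FPKM and was not tested. Insr, the insulin receptor gene, was 18.5 ± 2.13 FPKM in Alc against 13.8 ± 2.23 in Ctrl (0.41 ± 0.11, limma adjusted p = 0.0093), and Igf2r, which clears IGF2, differed by 0.41 ± 0.11 (limma adjusted p = 0.0089). Both receptors were higher in Alc.

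The IGF-binding protein gene Igfbp4 was 750 ± 23.3 FPKM in Alc against 610 ± 58.9 in Ctrl (0.30 ± 0.09, limma adjusted p = 0.021), a call lost without Ctrl 2 or Alc 5 (0.051 to 0.058). Igfbp7, which endothelial and stellate cells also express, was 64.7 ± 17.5 against 131 ± 52.4 (-0.93 ± 0.29, limma adjusted p = 0.021), lost without Ctrl 1, Ctrl 3 or Alc 1 (0.052 to 0.058). Beside it, the summed FPKM of 14 sinusoidal endothelial markers was 184.5 to 525.4 in Ctrl, 80.1 to 183.2 in Alc and 87.9 to 109.8 in Alc UA, with 13 of 14 called lower in Alc than in Ctrl and no marker at 0 throughout a group. Their part in any result here was not tested.

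Of 20 other liver transcription factors tested, 4 were higher and 1 lower in Alc, or 25% called, with a median of 0.11. Rxra, the partner of many nuclear receptors, was 109 ± 4.23 FPKM in Alc against 76.2 ± 12.9 in Ctrl (0.53 ± 0.11, limma adjusted p = 0.0022). Tox differed by 0.73 ± 0.18 (limma adjusted p = 0.0071) and Nr5a2, a nuclear receptor of bile acid and cholesterol genes, by 0.42 ± 0.13 (limma adjusted p = 0.019). Both were higher in Alc, and Nr5a2 lost its call without Ctrl 4 (0.053). Foxa3, a pioneer factor of the liver, differed by -0.56 ± 0.17 (limma adjusted p = 0.022), lost without Ctrl 3, Ctrl 4 or Alc 5 (0.052 to 0.067) and under the 3 other scalings (0.075 to 0.14).

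The sex-biased genes that growth hormone patterns are known to set had the largest median shifts of the 6 pathway lists. Both were smaller in size than those of the sinusoidal endothelial (-1.30) and erythroid (-2.13) markers. The female-biased shift was also smaller than those of B and plasma cell (-1.13, 4 genes tested), neutrophil (-0.90, 2 genes) and T and NK cell markers (-0.89, 3 genes). Of 26 tested male-biased liver genes, 0 were higher and 14 lower in Alc than in Ctrl, or 53.8% called against 33.3% of all genes, with a median of -1.22. Of 9 tested female-biased genes of 23 listed, 6 were higher and 0 lower, or 66.7% called, with a median of 0.83. The other 14 did not pass the filter on low values, so that count and that median cover only genes high in some group. Both sex-biased lists were chosen with earlier results of these data known. For Alc UA against Alc, no gene of any of these lists was called, and the medians were 0.80 for the male-biased and -0.34 for the female-biased genes. For Alc UA against Ctrl, where 42.6% of all genes were called, 2 of 26 male-biased genes were higher and 3 lower, and 5 of 9 female-biased genes were higher and 1 lower.

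**Figure D4:**
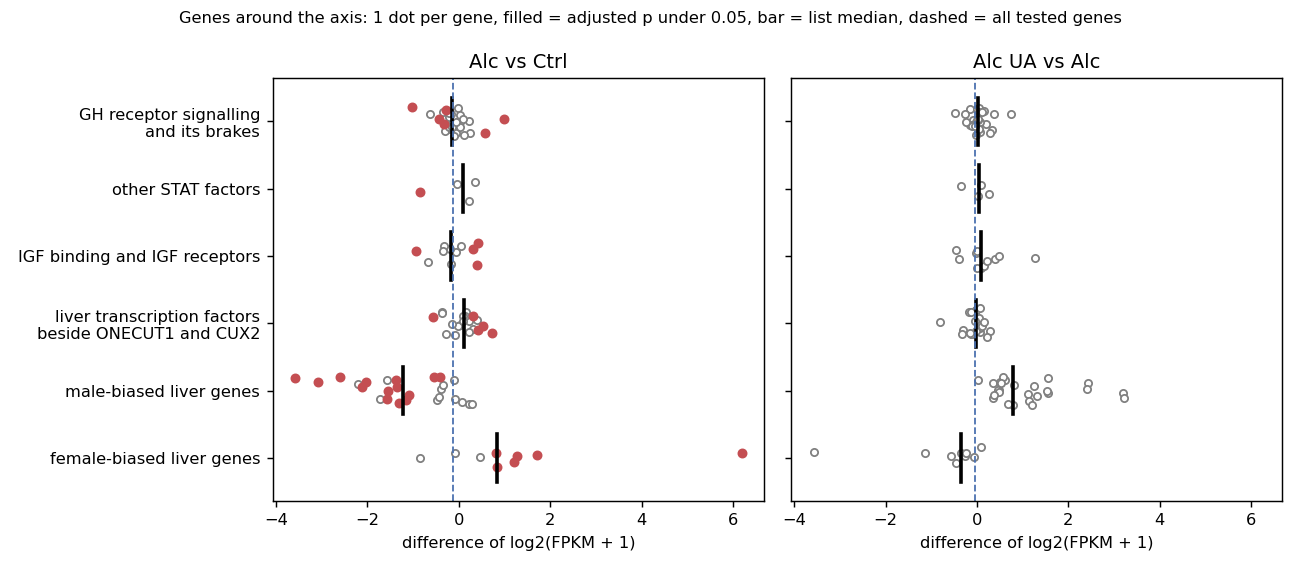
Differences of log2(FPKM + 1) for every tested gene of 6 lists around the axis, in Alc against Ctrl (left) and Alc UA against Alc (right), 1 dot per gene and filled where called. A bar marks each list's median and a dashed line the median of all tested genes, near which the signalling list sits. On the left the male-biased list lies lowest (-1.22) and the female-biased list highest (0.83). The latter median covers only the 9 of 23 genes that passed the filter on low values.

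In Alc UA against Ctrl, where 10.5% of all genes were higher and 32.1% lower, 1 of 29 signalling genes was higher and 7 lower. Of 4 STAT genes 1 was higher and 1 lower, of 11 IGF genes 3 were higher and 1 lower, and of 20 transcription factors 6 were higher and 3 lower. Stat2 fell by 1.19 there (limma adjusted p = 6.2e-05), and Stat3, which carries interleukin-6 signals, rose by 0.49 ± 0.13 (limma adjusted p = 0.0083). Other measures also differed between the groups. Dbp, an output gene of the circadian clock, was 3.09 to 6.65 FPKM in Ctrl, 62.93 to 125.86 in Alc and 57.88 to 94.0 in Alc UA, and its part was not tested. The summed FPKM of 6 erythroid markers was 1431 to 8801 in Ctrl, 576 to 988 in Alc and 346 to 1033 in Alc UA, and that of 13 Kupffer cell markers was 67.2 to 455.9, 187.6 to 312.7 and 214.1 to 676.1, with 0 of 13 called in Alc against Ctrl.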

How the data were processed

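The authors deposited 1 table of FPKM values for 15 libraries, 5 per group, with 18510 rows named by gene symbol. The submitters' processing notes list the tools DESeq, StringTie, RSEM 1.2.8, HISAT2 2.1.0 and Bowtie2 2.2.5 without their roles. For build, annotation and strand: not given in the sources used here. Since FPKM are normalized values, no count model was run and depth is unknown. No 2 libraries were identical.

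The 10959 genes that reached 1 FPKM in 5 or more libraries were analysed as log2(FPKM + 1) with limma 3.58.1 (R 4.3.3), with group means, a trend in the variance prior and 12 residual degrees of freedom. p-values were two-sided and adjusted by Benjamini-Hochberg within each comparison, and they measure the spread between these mice. Of the rows, 223 held 0 throughout and 25 had date-like names. The fit was tested on simulated data. Correlations used 100000 permutations within groups, two-sided. Figures used matplotlib 3.10.9.

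Members and lists were chosen with earlier results of these data known. Text names all members, up to 4 called genes with the smallest p per pathway list (for the sex-biased lists, counts only) and 3 nearest genes for each of the 3 most variable members, of which 2 are not reported here. Stat3, Jak2, Igf1r, Igfbp1, Cyp2b9, Dbp and Alb were named after their values were seen, and Ddx3y belonged to none of the lists. Alternatives covered pseudocount, filter, scaling, prior, weights, fit groups, the replicate number and each library left out.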

Additional observations from a re-analysis of the deposited data

Results flagged for a closer look

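Each of the 10 members was checked in each of the 3 groups, 30 groups of 5 libraries, for a library whose gap to its nearest neighbour exceeded 0.71 of the group's range. Chance flags about 1 group in 20 where values are normally distributed, and 6 of 30 were flagged here on the FPKM scale. On the log2(FPKM + 1) scale 2 of 30 exceeded it, Stat5a in Alc UA and Socs2 in Alc UA, so the other 4 depend on the scale. In Ctrl, Ctrl 3 held 12.89 FPKM of Cish, with the next library at 5.59, and Ctrl 1 held 10.74 FPKM of Bcl6, with the next at 5.02. In Alc UA, Alc UA 1 held 1.89 FPKM of Stat5a, below the next lowest at 2.89, and Alc UA 4 held 16.8 FPKM of Socs2, above the next at 11.08. Alc UA 2 held 12.65 FPKM of Bcl6, with the next at 4.01, and Alc UA 5 held 14.17 FPKM of Onecut1, with the next at 6.52. No library of Alc was flagged for any member. The calls of Onecut1 held without Alc UA 5, and Bcl6 in Alc UA against Ctrl passed without Alc UA 2 (-0.84, limma adjusted p = 0.019).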

How the results depend on the processing

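Over 27 member differences under 27 alternatives each, 687 of 729 values kept their side of the threshold, 28 lost a call, 14 gained one and 0 changed direction among called values. For Alc against Ctrl, members called higher went from 2 to 1 with no filter, with only the 2 groups compared and with the replicate block, and 1 to 2 were called without 1 library. Members called lower went from 1 to 0 with no filter, median-of-ratios size factors, same-sum scaling and only the 2 groups compared, and 0 to 2 without 1 library. For Alc UA against Ctrl, members called higher went from 1 to 2 with quantile normalization, median-of-ratios size factors, same-sum scaling, library weights and without Ctrl 1 and Ctrl 5, and 1 to 2 without 1 library. Members called lower went from 1 to 0 with the 3 scalings and without Ctrl 1 and Ctrl 5, and to 2 with library weights, and 1 to 2 without 1 library. The cause was not tested. For the correlations within groups, quantile normalization gave 0.69 for Cish and Socs2 (adjusted permutation p = 0.043) and -0.55 for Bcl6 and Socs2 (0.025). Median-of-ratios size factors gave 0.65 (0.038), -0.53 (0.030) and, for Igf1 and Igfals, 0.67 (0.038), all past the threshold. Under every other alternative no pair passed.

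Libraries with the same number were not treated as paired, and the labels do not say whether a number marks a pairing. Their deviations correlated at -0.30 to 0.29, and 5 of 15 pairs exceeded 0.1. Among those 5, the pairs of replicate 5 gave 0.24, 0.29 and 0.11. With the replicate block, Ghr in Alc against Ctrl gave 0.36 (limma adjusted p = 0.066). With 5 libraries per group and no read counts, precision rests on the spread between mice. Low levels such as Cux2, given to 2 decimals, carry an unknown counting error.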

Other observations

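The libraries with Cux2 above 1 FPKM were set beside Cyp2b9, a female-biased cytochrome P450 gene, chosen after values were seen. Cyp2b9 measured 82.89, 84.30, 59.34, 196.27 and 254.55 FPKM in Alc 1 to 5, where Cux2 was above 1 in Alc 1 and Alc 3. In Alc UA 1 to 5 it measured 2.74, 13.64, 1.13, 47.51 and 15.93 FPKM, where Cux2 was above 1 in Alc UA 1 and Alc UA 4. The Alc libraries with the most Cyp2b9, Alc 4 and Alc 5, held 0.16 and 0.22 FPKM of Cux2. Alc UA 4, with the most Cyp2b9 of Alc UA, held 4.22 FPKM of Cux2. In Ctrl 1 to 5, where Cux2 was at most 0.33, Cyp2b9 measured 6.19, 0.12, 0.12, 0.07 and 0.06 FPKM. A relation between these genes was not tested.

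Igfbp1, which encodes an IGF-binding protein that insulin represses, spread widely on the alcohol diet with UA and, over a smaller span, without it. It measured 301.97, 494.52, 30.3, 183.45 and 216.64 FPKM in Alc UA 1 to 5, and 186.75, 38.1, 31.66, 100.78 and 92.09 in Alc 1 to 5. In Ctrl 1 to 5 it measured 43.22, 116.34, 78.32, 86.02 and 78.93 FPKM. The difference of Alc UA from Alc was not called (limma adjusted p = 0.82). Alc UA 2, the library with the most Igfbp1, also held the most Bcl6, at 12.65 FPKM, and the least Prlr, at 6.54 FPKM.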
